A study of Mus musculus with 12 samples.

Results

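The genes described here are 9 immediate-early and related genes: the early growth response factors *Egr1*, *Egr2* and *Egr3*, their regulator *Srf*, the serum response factor gene, the immediate early response genes *Ier2*, *Ier3* and *Ier5*, and the B-cell translocation genes *Btg1* and *Btg2*. They were taken by name from gene tables that list 55401 gene identifiers for each mouse. Of the 9, 7 passed the expression filter that left 14159 genes for testing, and *Egr2* and *Egr3* did not. RNA-Seq was done on whole kidney of 12 male C57BL6 mice aged 8 weeks, with 1 library per mouse. The 6 vehicle mice received a single intraperitoneal injection of 15% 2-hydroxypropyl-beta-cyclodextrin. The 6 SK-124 mice received 40 mg/kg SK-124, a small molecule inhibitor of the salt-inducible kinases SIK2 and SIK3, by the same route. The text of the study gives no separate time between injection and tissue collection for these libraries. Mice carried no engineered allele named in the labels, and mouse numbers are those of the labels within each group.

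Immediate-early genes are switched on within minutes of a signal, without new protein synthesis, and many of their mRNAs decay quickly. SRF, bound to CArG boxes with ternary complex factors or MRTF cofactors, and CREB, bound to cAMP response elements (CREs), are the classic factors at their promoters. Salt-inducible kinases hold the CREB coactivators of the CRTC family in the cytoplasm, and kinase inhibition lets them enter the nucleus.

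With SK-124, *Ier3*, *Btg1* and *Btg2* rose and *Ier5* fell, and each of these calls was made with and without vehicle mouse 5. The result for *Egr1* depended on that mouse and on the scale. With vehicle mouse 5 counted, *Egr1* was not called (FDR = 0.610, edgeR), with a lower mean and a higher median in the SK-124 group. With that mouse left out, *Egr1* was called higher (FDR = 0.0314, edgeR). The mouse was singled out with earlier results of these data known, so tests without it are a description and no support. *Srf* and *Ier2* passed the test in neither case. Of the 7 genes tested, edgeR called 3 higher and 1 lower, at an FDR (a p adjusted over every gene tested) under 0.05. Among all genes tested, 10.8% were called higher and 13.5% lower. Without vehicle mouse 5 it called 4 of the 7 higher and 1 lower, against 9.69% and 12% of all genes. Levels are given as CPM, counts divided by a library size that was scaled with the TMM method, unless TPM is named.

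The upstream sequences of the 4 called genes and of *Srf* are shown because they carry, or lack, the sites named above. Each is the 250 bases before a RefSeq start site in build GRCm38.p6, read 5′ to 3′ on the gene's strand. Capitals mark the full CRE (TGACGTCA), its 5-base core TGACG or the reverse complement of the core, and CArG boxes.
Btg2 (chr1:134079156-134079405, minus strand): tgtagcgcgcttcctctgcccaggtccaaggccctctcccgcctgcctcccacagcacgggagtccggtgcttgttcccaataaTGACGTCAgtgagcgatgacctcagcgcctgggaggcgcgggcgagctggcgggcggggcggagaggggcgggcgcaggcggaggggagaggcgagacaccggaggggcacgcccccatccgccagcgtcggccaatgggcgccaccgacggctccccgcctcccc
Btg1 (chr10:96616751-96617000, plus strand): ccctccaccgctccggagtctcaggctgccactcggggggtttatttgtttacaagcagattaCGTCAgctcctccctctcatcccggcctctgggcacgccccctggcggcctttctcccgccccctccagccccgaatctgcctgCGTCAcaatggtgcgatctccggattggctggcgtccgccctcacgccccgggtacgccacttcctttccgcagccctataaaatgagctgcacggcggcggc
Ier3 (chr17:35821463-35821712, plus strand): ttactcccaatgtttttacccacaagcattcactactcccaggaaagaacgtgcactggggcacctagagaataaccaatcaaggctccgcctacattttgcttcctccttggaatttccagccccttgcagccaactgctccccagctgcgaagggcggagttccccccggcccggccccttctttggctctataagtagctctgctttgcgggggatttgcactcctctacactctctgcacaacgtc
Ier5 (chr1:155099637-155099886, minus strand): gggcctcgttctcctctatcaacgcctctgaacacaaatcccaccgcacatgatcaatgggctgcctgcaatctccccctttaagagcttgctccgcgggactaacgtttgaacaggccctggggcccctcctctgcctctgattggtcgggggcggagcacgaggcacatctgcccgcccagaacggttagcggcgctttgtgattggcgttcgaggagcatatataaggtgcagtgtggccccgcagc
Srf (chr17:46556163-46556412, minus strand): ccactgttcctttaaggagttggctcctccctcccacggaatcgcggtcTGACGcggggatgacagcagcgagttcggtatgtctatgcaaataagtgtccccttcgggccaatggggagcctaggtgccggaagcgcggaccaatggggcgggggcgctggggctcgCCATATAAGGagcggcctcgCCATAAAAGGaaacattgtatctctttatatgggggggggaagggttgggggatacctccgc
The 8-base CRE of *Btg2* begins 166 bases before the start site, and its 2 matches to the core are the same letters. *Btg1* holds 2 cores, beginning 187 and 103 bases before its start, and no full CRE. *Ier3* and *Ier5* hold no match to any motif searched. *Srf* holds 2 CArG boxes, beginning 82 and 62 bases before its start, and 1 core at 201 bases. Matches were counted on both strands in windows of 300 bases, which add 50 bases after each start. Of 32851 such windows in the RefSeq table, 1.79% held a full CRE, 20.8% held a core and 1.63% held a CArG box. A letter match is a description of sequence and was not tied to binding in these mice. The other motifs searched were the EGR sites GCGGGGGCG (2.91% of windows) and GCGTGGGCG (0.612%), the E-box CACGTG (7.15%), the AP-1 site (5.20%) and the glucocorticoid response element (0.475%). Among the windows printed, *Srf* held 1 EGR site, at 101 bases before the start. The table has 5 start sites for *Egr2*, and 4 of their windows held a CArG box. The windows that begin at 67537619, 67537620 and 67537680 overlap and share the same CArG box and the same 2 cores. It has no entry for *Egr1*, *Egr3* and *Ier2*.

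Expected counts summed to between 19244227 and 19771802 per mouse. The 10 genes with the most counts took 39.9% to 43.2% of them in vehicle mice, 44.4% to 46.8% in SK-124 mice 1 to 3 and 38.6% to 40.2% in SK-124 mice 4 to 6. All 8 proximal tubule markers were expressed. Their summed level was 7626 to 8643 CPM in vehicle mice, lowest in vehicle mouse 5, and 7146 to 9083 CPM in SK-124 mice. No pair of mice in a group looked like 1 library deposited more than once. The labels do not say more about how mice were housed or processed together, so p-values measure the spread between these mice. In whole-kidney RNA, fewer cells of a type and less RNA per cell cannot be told apart.

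*Egr1* (ENSMUSG00000038418.7, chromosome 18, 34859823 to 34864984, plus strand, in GENCODE M21 on GRCm38) encodes a zinc-finger transcription factor that binds GC-rich sites and is a standard readout of ERK and SRF signalling. In vehicle mice 1 to 6 it was at 6.37, 5.80, 12.6, 18.8, 215 and 6.26 CPM. In SK-124 mice 1 to 6 it was at 9.61, 16.2, 35.3, 74.6, 18.99 and 13.6 CPM. Vehicle mouse 5 stood above every other mouse of the study, at 33.8 times the median of the other vehicle mice, and rested on 4540 counts. No SK-124 mouse was above all vehicle mice, and 3 of 6 were above the other 5. The mean was 44.2 ± 84.0 CPM (SD, n = 6) with vehicle and 28.1 ± 24.5 CPM (SD, n = 6) with SK-124, whereas the median was 9.47 CPM with vehicle and 17.6 CPM with SK-124. edgeR gave a log2 difference of -0.65 with a standard error of 0.80 (FDR = 0.610). On log2(CPM + 0.5), which weighs a single high value less, the difference between group means had the opposite sign, at 0.50 (two-sided exact permutation test, p = 0.608).

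Without vehicle mouse 5, the mean of *Egr1* in the vehicle group was 9.96 ± 5.68 CPM (SD, n = 5) and the edgeR log2 fold change was 1.5 with a standard error of 0.47 (FDR = 0.0314). The exact permutation test then gave a difference of 1.25 on the log2 scale with p = 0.0390. Both are a description only, because this mouse was singled out with earlier results known. When each of the other 11 mice was left out in turn, the edgeR value stayed between -1.24 and -0.48 and was never called, with FDR between 0.328 and 0.741. The most negative of these came from the fit without SK-124 mouse 4, the highest of the treated mice. Of the 12 fits that left out 1 mouse, the one without vehicle mouse 5 was the only one to call *Egr1*.

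**Figure D1:**
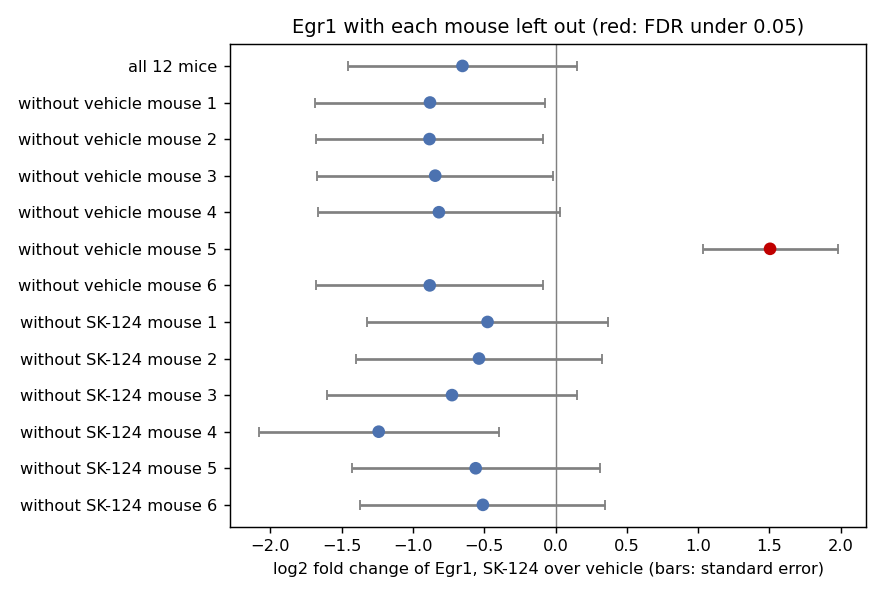
The plot gives the log2 fold change of *Egr1*, SK-124 over vehicle, from edgeR on the x axis, with all 12 mice and with each mouse left out; bars are standard errors and red marks an FDR under 0.05. The value is -0.65 with all mice and 1.5 without vehicle mouse 5, while the other 11 fits lie between -1.24 and -0.48.

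*Egr2* (ENSMUSG00000037868.15, chromosome 10, 67535475 to 67542188, plus strand), which encodes the EGR factor known for its role in Schwann cell myelination, was close to the detection limit. Rounded expected counts in vehicle mice 1 to 6 were 2, 1, 6, 2, 60 and 5, and in SK-124 mice 1 to 6 they were 3, 12, 16, 28, 23 and 6. Vehicle mouse 5 was again the highest of all 12 mice, at 28.2 times the median of the other vehicle mice. Against those other 5 vehicle mice, 4 of 6 SK-124 mice were higher than all. The difference on log2(CPM + 0.5) was 0.47 with all mice (exact permutation test, p = 0.327) and 0.87 without vehicle mouse 5 (p = 0.0216). The value without that mouse is a description only, and its p is not adjusted. In an edgeR fit with no filter on low counts and all mice, the gene was at 0.33 on the log2 scale, with a standard error of 0.61 (FDR = 0.776).

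*Egr3* (ENSMUSG00000033730.4, chromosome 14, 70077203 to 70082614, plus strand), which encodes a related EGR factor, had 3, 0, 0, 6, 14 and 1 counts in vehicle mice 1 to 6. In SK-124 mice 1 to 6 it had 0, 1, 3, 4, 1 and 2 counts. A count of 0 allows up to 3 counts, so most of these mice cannot be ordered at this depth, and vehicle mouse 5 was the highest. The difference on log2(CPM + 0.5) was -0.16 with all mice (exact permutation test, p = 0.537) and 0.0063 without vehicle mouse 5 (p = 0.939).

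*Srf* (ENSMUSG00000015605.6, chromosome 17, 46548329 to 46556175, minus strand) encodes the transcription factor that binds CArG boxes in *Fos* and *Egr* promoters. Its level was 23.7 to 29.1 CPM in vehicle mice and 23.1 to 26.2 CPM in SK-124 mice, so the groups overlapped. The edgeR log2 fold change was -0.11 with a standard error of 0.06 (FDR = 0.240) and -0.08 without vehicle mouse 5 (FDR = 0.438). *Srf* was the member with the narrowest range over the 12 mice, and vehicle mouse 5 was only 1.14 times the median of the other vehicle mice. The gene model *Gm26904* overlaps *Srf* on the opposite strand and *Mir6976* on the same strand, and whether the counting used strand is not given in the sources used here.

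*Ier2* (ENSMUSG00000053560.5) encodes a nuclear protein of the immediate early response family. Its identifier has another version in GENCODE M21, so no coordinates are given. It was at 6.12, 4.36, 7.05, 5.95, 17.8 and 4.64 CPM in vehicle mice 1 to 6. The SK-124 mice, in the same order, were at 5.27, 6.02, 9.08, 8.56, 7.97 and 6.33 CPM. Vehicle mouse 5 exceeded every SK-124 mouse, and the ranges of the other vehicle mice and the SK-124 mice overlapped. The edgeR log2 fold change was -0.09 with a standard error of 0.28 (FDR = 0.859) with all mice and 0.36 (standard error 0.15, FDR = 0.110) without vehicle mouse 5.

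*Ier3* (ENSMUSG00000003541.6, chromosome 17, 35821684 to 35822923, plus strand, 2 exons), also called IEX-1, encodes a regulator of cell survival that is phosphorylated by ERK. It was at 19.2, 14.1, 14.3, 23.8, 29.7 and 22.1 CPM in vehicle mice 1 to 6. With SK-124, mice 1 to 6 were at 41.1, 34.6, 51.8, 46.8, 39.0 and 39.3 CPM. Every SK-124 mouse was above every vehicle mouse, vehicle mouse 5 included. The mean rose from 20.5 ± 6.00 to 42.1 ± 6.18 CPM (SD, n = 6 each), and edgeR put the log2 fold change at 1.03 with a standard error of 0.15 (FDR = 7.85e-05). Without vehicle mouse 5 it was 1.17 (FDR = 1.04e-05). The exact permutation p was 0.00216, the smallest that 6 mice against 6 allow.

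*Ier5* (ENSMUSG00000056708.5, chromosome 1, 155096361 to 155099636, minus strand, 1 exon) encodes a regulator of the heat shock factor HSF1 and was the only member called lower. It was at 7.21, 6.64, 7.92, 7.71, 8.87 and 7.44 CPM in vehicle mice 1 to 6. In SK-124 mice 1 to 6 it was at 4.69, 4.85, 4.93, 6.68, 4.76 and 4.46 CPM. All SK-124 mice other than mouse 4 were below the vehicle range, and mouse 4 stood just above the lowest vehicle mouse. The mean fell from 7.63 ± 0.75 to 5.06 ± 0.81 CPM (SD, n = 6 each), and edgeR put the log2 fold change at -0.59 with a standard error of 0.10 (FDR = 0.000459), and at -0.54 without vehicle mouse 5 (FDR = 0.00137). The exact permutation p was 0.00433.

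*Btg1* (ENSMUSG00000036478.8, chromosome 10, 96617006 to 96622809, plus strand, 2 exons) encodes an antiproliferative protein that binds the CCR4-NOT deadenylase and promotes mRNA decay. It was at 33.6, 32.8, 37.6, 38.4, 40.1 and 36.5 CPM in vehicle mice 1 to 6. The SK-124 mice, in the same order, were at 63.4, 63.6, 72.4, 74.4, 65.6 and 73.1 CPM. The groups lay far apart, and the spread inside each was small. The mean rose from 36.5 ± 2.82 to 68.8 ± 5.08 CPM (SD, n = 6 each), and edgeR put the log2 fold change at 0.91 with a standard error of 0.06 (FDR = 1.55e-08). Vehicle mouse 5 was 1.10 times the median of the other vehicle mice, and without it the value was 0.94 (FDR = 3.39e-08). The exact permutation p was 0.00216.

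*Btg2* (ENSMUSG00000020423.6, chromosome 1, 134075170 to 134079120, minus strand, 2 exons) encodes the close relative of BTG1 that is also known as a p53 target. It was at 7.85, 5.85, 7.0, 7.66, 18.6 and 7.44 CPM in vehicle mice 1 to 6. With SK-124, mice 1 to 6 were at 20.04, 24.2, 35.2, 39.9, 19.1 and 28.7 CPM. Vehicle mouse 5 lay just below the lowest SK-124 mouse, mouse 5 at 19.1 CPM, and the groups did not overlap. The mean rose from 9.07 ± 4.74 to 27.9 ± 8.37 CPM (SD, n = 6 each), and edgeR put the log2 fold change at 1.61 with a standard error of 0.25 (FDR = 0.000112). Without vehicle mouse 5, the vehicle mean was 7.16 ± 0.80 CPM (SD, n = 5) and the log2 fold change 1.96, with a standard error of 0.18 (edgeR, FDR = 7.71e-07). The exact permutation p with all mice was 0.00216.

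**Figure D2:**
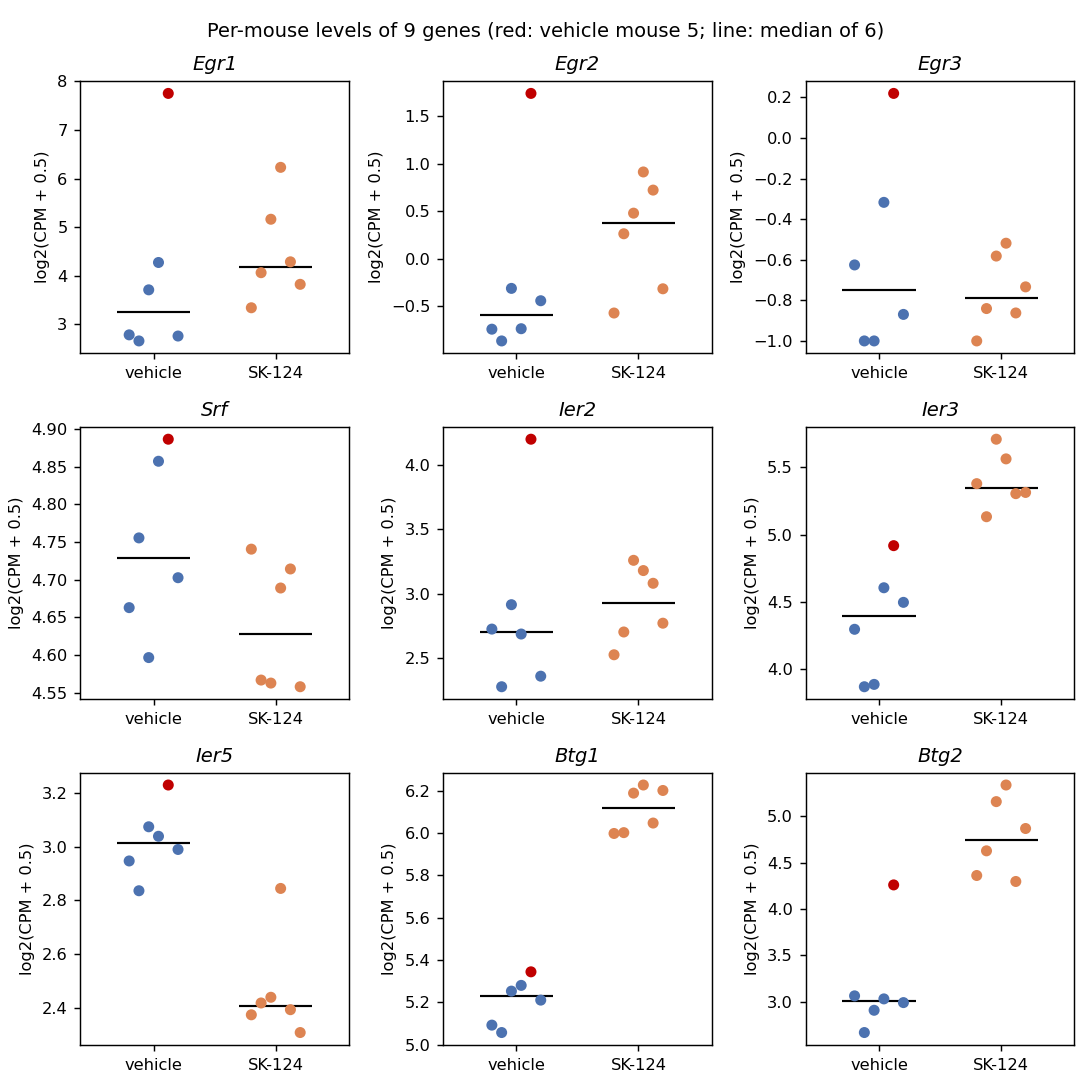
Each panel plots log2(CPM + 0.5) of 1 gene for the 6 vehicle and 6 SK-124 mice, 1 point per mouse, with the group median as a line, vehicle mouse 5 in red and a separate y scale per panel. Vehicle mouse 5 is the highest vehicle mouse in all 9 panels, and only *Ier3*, *Btg1* and *Btg2* have groups that do not overlap.

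In all, 3 of the 9 genes (*Ier3*, *Btg1* and *Btg2*) had groups that did not overlap with SK-124 higher, where 6.32% of the genes tested did. None of the 9 had groups that did not overlap with SK-124 lower, where 6.65% of the genes tested did. Without vehicle mouse 5 these counts were again 3 and 0, where 6.88% and 7.20% of the genes tested did. In the authors' TPM, which divide by effective gene length and scale each library to a fixed total, *Btg1* was the only member with SK-124 above vehicle in every mouse. The vehicle and SK-124 ranges of *Ier3* and *Btg2* overlapped in TPM, and those of *Ier5* did not. The share of all genes tested whose groups did not overlap was counted in CPM only, so the TPM results have no such share beside them.

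**Figure D3:**
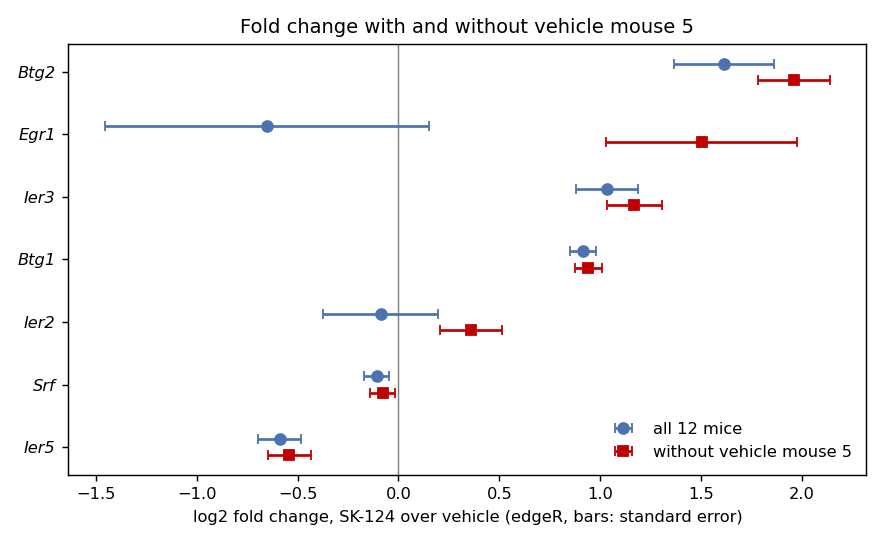
The plot gives edgeR's log2 fold change, SK-124 over vehicle, for the 7 genes tested, with all 12 mice (blue circles) and without vehicle mouse 5 (red squares); bars are standard errors. *Egr1* moves from -0.65 to 1.5, while *Btg1* moves from 0.91 to 0.94.

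Vehicle mouse 5 was the highest of the 6 vehicle mice for 9 of 9 members, where it was the highest for 17.5% of the genes tested. The mouse and the genes were singled out with earlier results of these data known, so this count is a description only. Its excess over the median of the other vehicle mice was uneven: 33.8 times for *Egr1*, 28.2 for *Egr2*, 14.01 for *Egr3* (on few counts), 2.998 for *Ier2*, 2.51 for *Btg2* and 1.55 for *Ier3*, and 1.19 or less for *Ier5*, *Srf* and *Btg1*. Vehicle mouse 5 exceeded all 6 SK-124 mice for *Egr1*, *Egr2*, *Egr3*, *Srf*, *Ier2* and *Ier5*. For *Ier3*, *Btg1* and *Btg2* it exceeded none. Over all genes tested, vehicle mouse 3 was the vehicle mouse most often highest, at 28.5%, and it was the highest for 0 of 9 members. Among SK-124 mice, mouse 4 was the highest for 6 of 9 members, where it was the highest for 17.9% of the genes tested.

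**Figure D4:**
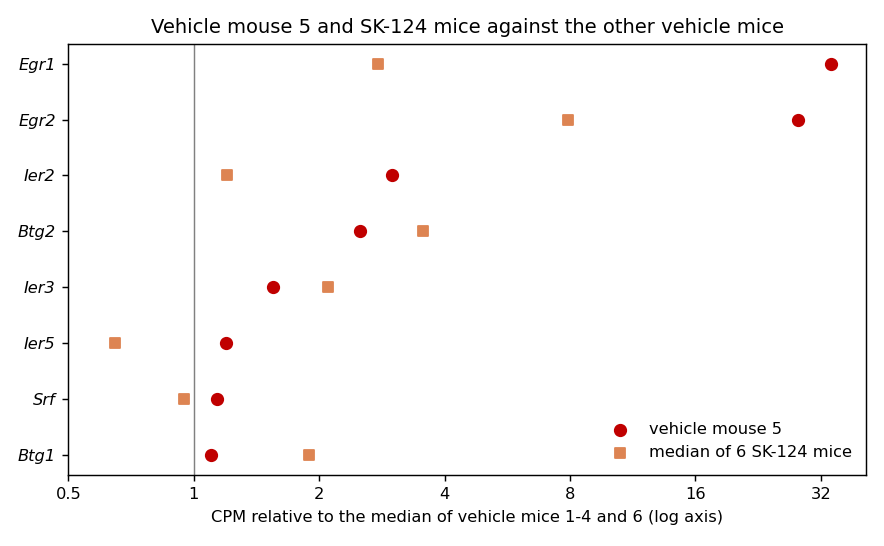
The x axis (log scale) gives CPM relative to the median of vehicle mice 1 to 4 and 6, for vehicle mouse 5 (red circles) and for the median of the 6 SK-124 mice (orange squares), for the members other than *Egr3*, which had no count in 2 vehicle mice. The circle lies right of the square for *Egr1*, *Egr2*, *Ier2*, *Ier5* and *Srf*, and left of it for *Btg1*, *Btg2* and *Ier3*.

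Some of the IER genes, grouped here by name, and the BTG genes differed in their response, while no pair of EGR genes passed the test with all mice. On the per-mouse log2 ratio of 2 members, tested by exact permutation with Benjamini-Hochberg adjustment over 7 pairs, *Ier3* rose relative to *Ier5* by 1.61 (adjusted p = 0.00758). *Ier2* changed by -0.996 relative to *Ier3* (exact permutation, adjusted p = 0.00758). *Btg1* changed by -0.72 relative to *Btg2* (exact permutation, adjusted p = 0.0455), and by -0.91 without vehicle mouse 5 (adjusted p = 0.00758). *Ier2* against *Ier5* gave 0.61 (exact permutation, adjusted p = 0.0795) with all mice and 0.84 (adjusted p = 0.00758) without vehicle mouse 5. The *Egr1* to *Egr2* ratio gave 0.02 (exact permutation, adjusted p = 0.972) with all mice and 0.38 without vehicle mouse 5 (adjusted p = 0.359). The ratios to *Egr3* gave 0.65 for *Egr1* (exact permutation, adjusted p = 0.457) and 0.63 for *Egr2* (adjusted p = 0.142) with all mice. They were 1.24 (exact permutation, adjusted p = 0.0354) and 0.86 (adjusted p = 0.0303) without vehicle mouse 5, so both then passed the test. Both rest on few *Egr3* counts, and the pseudocount of 0.5 weighs on them.

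In TPM, which allows levels of different genes to be set side by side, the vehicle medians ran from *Ier3* at 20.8 through *Srf* at 11.1, *Btg1* at 6.90, *Ier2* at 4.11, *Btg2* at 2.75, *Egr1* at 2.65 and *Ier5* at 2.19 to *Egr2* at 0.125 and *Egr3* at 0.025. With SK-124, the median TPM of *Ier3* was 39.1, of *Btg1* 13.3, of *Srf* 8.90, of *Btg2* 8.71, of *Egr1* 4.88, of *Ier2* 4.86, of *Ier5* 1.29, of *Egr2* 0.63 and of *Egr3* 0.04. *Btg1* thus stood above *Srf* in the SK-124 order and below it in the vehicle order. In vehicle mice the TPM ranges of neighbours in this order overlapped, except between *Ier3* and *Srf* and between *Srf* and *Btg1*. In SK-124 mice they overlapped from *Btg1* down to *Ier2*, and not between *Ier3* and *Btg1* or among *Ier2*, *Ier5*, *Egr2* and *Egr3*.

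The genes that act around these members were counted on lists chosen with earlier results of these data known. Beside these counts, 10.8% of all genes tested were called higher and 13.5% lower. Of the BTG and TOB family, the 3 genes tested were all called higher, with *Tob2* at a log2 fold change of 1.29 (FDR = 5.73e-08, edgeR), *Btg3* at 0.45 (FDR = 0.0321) and *Tob1* at 0.39 (FDR = 0.0113). *Btg4* was at 0 in every mouse. The 12 subunits of CCR4-NOT, the deadenylase that BTG and TOB proteins bind, held 1 that passed the test (*Tnks1bp1*, lower by edgeR, -0.22, FDR = 0.0106), and their median log2 fold change was 0.02. *Ier5l*, the paralogue of *Ier5*, was lower with SK-124 in every mouse than in any vehicle mouse, with a log2 fold change of -1.11 (FDR = 3.15e-06, edgeR), and *Ier3ip1* was at 0.12 (FDR = 0.264). Over every gene tested the median was -0.0050 on the log2 scale.

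Of 6 SRF cofactors tested, 3 were higher (*Mrtfa* at 0.41, *Elk4* at 0.31 and *Mrtfb* at 0.27 in log2 fold change, edgeR) and 2 were lower (*Fhl2* at -0.76 and *Elk3* at -0.66). MRTF proteins carry actin signals to SRF, and ELK proteins are the ternary complex factors phosphorylated by ERK. Of 16 cytoskeletal targets of SRF and MRTF, 5 were higher and 1 was lower, with a median log2 fold change of 0.09. The 3 with the smallest p were *Tpm4* (0.59), *Fhl1* (0.39) and *Tagln* (0.55), and *Acta2*, at an FDR of 0.0452 in edgeR's test, was at 0.0512 without vehicle mouse 5. Of 3 EGR relatives and NAB co-repressors tested, 1 was higher: *Nab1*, a co-repressor of EGR factors, at 0.28 (FDR = 0.00204, edgeR). Of 10 genes of ERK and RSK signalling, *Egfr*, the EGF receptor gene, was higher (0.42) and *Rps6ka1*, which encodes an RSK, was lower (-0.53). Among all genes tested, 10.8% were higher and 13.5% lower, so the ERK and RSK counts are near that share.

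Of the 19 other immediate-early genes tested, 12 were higher and 1, *Ccn1*, was lower, with a median log2 fold change of 1.15. The shares over all genes tested were 10.8% higher and 13.5% lower, and 9.69% and 12% without vehicle mouse 5. Without vehicle mouse 5, 15 of the 19 passed the test, each of them higher, with a median over the list of 2.06 (edgeR, FDR under 0.05). The 3 with the smallest p, *Fosl2*, *Nr4a3* and *Maff*, had log2 fold changes of 1.97, 5.20 and 2.80. Vehicle mouse 5 was the highest vehicle mouse for 15 of the 19. *Fos*, the AP-1 subunit that shares SRF control with *Egr1*, moved from 0.13 (FDR = 0.925, edgeR) with all mice to 2.67 (FDR = 0.000362) without that mouse, which had 27.1 CPM against at most 2.12 CPM in the other vehicle mice. *Ccn1*, at 77.0 CPM in vehicle mouse 5 and at most 17.7 CPM in the others, moved from -1.36 (FDR = 0.0336) to -0.51 (FDR = 0.0508, edgeR).

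**Figure D5:**
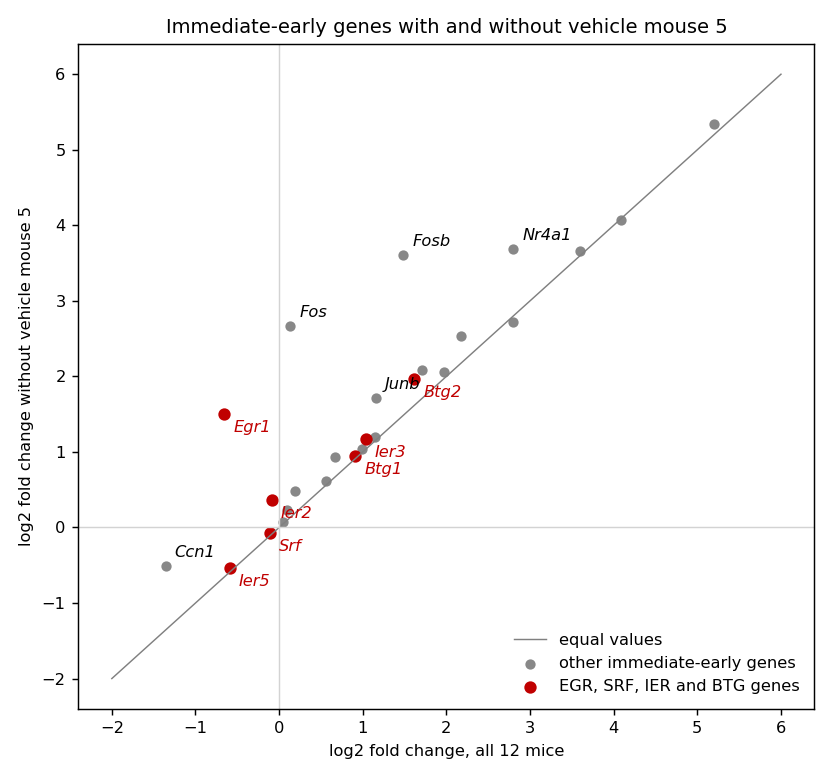
Each point is a gene, with edgeR's log2 fold change from all 12 mice on the x axis and without vehicle mouse 5 on the y axis; red marks the 7 members tested, grey the 19 other immediate-early genes, and the line marks equal values. *Fos*, *Fosb* and *Egr1* lie far above the line, whereas *Btg1*, *Ier5* and *Srf* lie close to it.

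The genes whose pattern over the 12 mice was most like that of the 3 most variable members were found among 13001 genes, by the root mean square difference of mean-centred log2(CPM + 0.5) values. For *Egr1* these were *Fos* (0.551), *Junb* (0.930) and *Fosb* (0.964), where the spread of *Egr1* itself was 1.45 on this scale. For *Btg2* they were *Zfp36* (0.278), *Apold1* (0.292) and *Junb* (0.303), where the spread of *Btg2* was 0.929. For *Egr2* they were *Jun* (0.442), *Junb* (0.530) and *Fndc1* (0.551), where the spread of *Egr2* was 0.777. These values share the mice, the libraries and the high level in vehicle mouse 5, and are given as a description.

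Some markers of other cells were called, where 10.8% of all genes tested were called higher and 13.5% lower. The part of these markers in the results above was not tested. Of 6 neutrophil and platelet markers, 3 were tested and 2 were higher (*S100a8* and *S100a9*). The summed level of that list was 1.09 to 2.51 CPM in vehicle mice, with vehicle mouse 5 the highest, and 3.56 to 8.71 CPM in SK-124 mice. Of 8 lymphocyte markers, 2 were tested and 1, *Cd79a*, was lower; the summed level was 3.11 to 5.01 CPM in vehicle mice and 1.34 to 2.48 CPM in SK-124 mice. Of 8 adrenal markers, 3 were at 0 in every mouse, and the summed level was 0.43 to 0.66 CPM in vehicle mice and 0.39 to 0.93 CPM in SK-124 mice. Of the other lists, thick ascending limb and distal tubule markers had 1 of 6 higher, and their summed level was 3022 to 4094 CPM in vehicle mice, highest in vehicle mouse 5, and 3985 to 4375 CPM in SK-124 mice. Collecting duct markers had 2 of 6 higher and 2 lower, stromal and smooth muscle markers 2 of 7 higher and 2 lower, and podocyte markers 1 of 5 higher. The summed level of the collecting duct list was 245 to 317 CPM in vehicle mice, highest in vehicle mouse 5, and 258 to 391 CPM in SK-124 mice. Endothelial and macrophage markers each had 1 of 7 lower (edgeR, FDR under 0.05). *Ier3*, *Btg1*, *Btg2* and *Ier5* were called by edgeR with only mice 1 to 3 and with only mice 4 to 6 in the SK-124 group. With only mice 1 to 3, edgeR called 1065 of 14512 genes higher and 1233 lower. With only mice 4 to 6, it called 1179 of 14621 genes higher and 1267 lower. The part of the share of counts in the top 10 genes, which was higher in SK-124 mice 1 to 3, was not tested.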

How the data were processed

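RNA from whole kidney of 6 vehicle and 6 SK-124 mice was sequenced on a BGISEQ machine, with 1 library per mouse. The RSEM tables that the authors deposited hold expected counts (estimated and partly fractional reads of each gene, not normalized) and TPM (scaled by the authors to effective gene length and to a fixed total per library). The submitters' processing notes name FastQC, STAR 2.7.2b, RSEM 1.3.0, DESeq2 and build mm10; the annotation and the use of strand are not given in the sources used here. Of 55401 identifiers, 54349 matched GENCODE M21 with their version.

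Expected counts were rounded, scaled with TMM, filtered with filterByExpr and tested with edgeR 4.0.16 (quasi-likelihood F test, R 4.3.3) over 14159 genes, with Benjamini-Hochberg adjustment (FDR) and calls under 0.05. The standard error of a log2 fold change came from its F statistic. CPM is TMM-normalized. Single genes and ratios were tested by two-sided exact permutation on log2(CPM + 0.5) (scipy 1.17.1). A single mouse stood apart where its gap to the nearest mouse exceeded 0.625 of the range of its group of 6. Library totals were alike, so precision is lowest for genes with few reads, where a count of 0 allows up to 3. The scripts were tested on simulated data.

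Alternatives were DESeq2 1.42.0, RLE size factors, library totals, robust dispersion, the replicate number as a block, a minimum of 10 counts in each mouse, no expression filter, limma 3.58.1 on TPM with a pseudocount of 1 or 0.1, leaving out each mouse in turn, SK-124 mice 1 to 3 or 4 to 6 left out, log2(CPM + 1) and TPM in place of CPM. The genes named are the 9 members, the 3 genes with the smallest p of each pathway list, and the 3 genes most alike in pattern to the 3 most variable members, at a mean of at least 1 CPM. Other genes named were chosen after their values were seen. Members and lists were chosen with earlier results of these data known. The FPKM column and the study's other experiments were not used here.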

Additional observations from a re-analysis of the deposited data

Results flagged for a closer look

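A mouse stood far from the rest of its group in 5 of 18 comparisons of 9 genes in 2 groups, and 4 of the 5 were vehicle mouse 5. The cut-off used flags about 1 in 20 groups by chance, but this mouse and these genes were singled out with earlier results known, so the count is a description and no support. In that mouse *Egr1* was at 215 CPM, with the next vehicle mouse at 18.8 CPM. *Egr2* was at 2.85 CPM there, with the next vehicle mouse at 0.306 CPM. *Ier2* was at 17.8 CPM, with the next at 7.05 CPM, and *Btg2* at 18.6 CPM, with the next at 7.85 CPM. These genes were measured in the same library, so the 4 values are not independent of each other. The remaining value was that of *Ier5* in SK-124 mouse 4, at 6.68 CPM, with the next SK-124 mouse at 4.93 CPM.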

How the results depend on the processing

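Over 23 alternatives, the log2 fold change stayed called and in its direction for *Btg1* (0.75 to 0.97), *Btg2* (1.26 to 1.96), *Ier3* (0.89 to 1.17) and *Ier5* (-0.71 to -0.48), and uncalled for *Srf* (-0.26 to -0.08). *Egr1* changed sign from -0.65 to 0.62 (FDR = 0.499) with the replicate number as a block in edgeR, to 0.25 with limma on log2(TPM + 1), to 0.38 with limma on log2(TPM + 0.1) and to 1.5 without vehicle mouse 5, and ranged from -1.24 to 1.5 with each mouse left out. *Ier2* changed sign from -0.09 to 0.027 with the block and to 0.36 without vehicle mouse 5, and ranged from -0.21 to 0.36 with each mouse left out. The permutation differences without vehicle mouse 5 were 1.25 for *Egr1*, 0.87 for *Egr2* and 0.0063 for *Egr3*. Those of the ratios were 1.24 for *Egr1* to *Egr3*, 0.86 for *Egr2* to *Egr3* and 0.84 for *Ier2* to *Ier5*. Each of these but that of *Egr3* alone then had a permutation p under 0.05. That p was adjusted over 7 pairs for the ratios and not adjusted for single genes. With all mice none of them passed. The mouse was singled out with earlier results known, so these values are a description only. DESeq2 gave *Egr1* no adjusted p. In TPM, 1 member had groups that did not overlap with SK-124 higher and 1 with SK-124 lower. The matching share of all genes was not counted in TPM, so these 2 counts cannot be set against it.

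Deviations of same-numbered mice correlated weakly (-0.13 to 0.22), which does not settle whether the numbers pair the mice. The replicate block gave 3466 genes called and changed no member's call.

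Over all genes, library totals in place of TMM gave 777 higher and 3058 lower (20.3% of calls higher, against 44.5%) and moved the median log2 fold change from -0.0050 to -0.12. limma on log2(TPM + 1) gave 500 higher (19% of calls) and on log2(TPM + 0.1) 498 higher. Without SK-124 mice 1 to 3, 1267 were lower; without SK-124 mice 4 to 6, 2298 were called, 1233 of them lower, with fewer mice in the fit. Each mouse left out gave 2960 to 3942 calls, the most without vehicle mouse 3. The cause of the other shifts was not tested. Depth limits *Egr2* and *Egr3*, with at most 60 and 14 counts.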
